A study of Homo sapiens with 12 samples.

Results

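The genes described here are ZIC2, ZIC5, TSHZ3 and KLF5, zinc finger transcription factor genes known from embryonic development, as seen by acetylation of lysine 9 of histone H3 (H3K9ac) in MOLM-13 cells. Their regions were all those of the deposited H3K9ac table that overlapped the RefSeq body of a member with 20 kb added on each side, which gave 9 of 47648 regions. ZIC2 and ZIC5 lie beside each other on chromosome 13 and share the same 3 regions, TSHZ3 on chromosome 19 has 5 and KLF5 on chromosome 13 has 1. The 4 genes were chosen by their values in these libraries, which were higher with WM-1119 once a background had been subtracted, so every difference between WM-1119 and DMSO given for them is a description and carries no test. The groups were MOLM-13 cells after 4 days in 4 µM WM-1119, with 3 H3K9ac libraries, and MOLM-13 cells in the solvent DMSO, with 3. The MOLM-13 line comes from a human acute myeloid leukaemia and carries a KMT2A-MLLT3 fusion, WM-1119 is a small-molecule inhibitor of the lysine acetyltransferase KAT6A, and the study asks what KAT6A inhibition does to the chromatin of these cells. All libraries come from this 1 cell line, nothing in the labels ties replicates to separate cultures, and the 6 input samples of the 12 in the series were not analysed here.

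ZIC2 and ZIC5 encode zinc finger proteins of the ZIC family, which act in the early neural plate and in the patterning of the forebrain, and loss of one copy of ZIC2 causes holoprosencephaly. TSHZ3 encodes a teashirt-type zinc finger protein that acts in the development of the ureter muscle and of cortical neurons. KLF5 encodes a Krüppel-like factor, a protein that binds GC-rich promoter elements; it is best known from the renewing epithelium of the gut and skin, and in blood it takes part in granulocyte maturation. H3K9ac marks the start sites of active genes and active enhancers, while silent developmental genes with CpG-rich start sites often carry other marks. KAT6A, the enzyme that WM-1119 inhibits, belongs to the MYST family of histone acetyltransferases.

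The 250 bases before annotated start sites are shown because the strongest region of each locus lies over a CpG-rich start site, and because 2 of the members have a start site that no region covers. Capitals mark CG pairs. The sequences are those of RefSeq in GRCh38.p14, written 5′ to 3′ on the strand of the gene.
ZIC2, start covered, chr13:99981534-99981783, plus strand: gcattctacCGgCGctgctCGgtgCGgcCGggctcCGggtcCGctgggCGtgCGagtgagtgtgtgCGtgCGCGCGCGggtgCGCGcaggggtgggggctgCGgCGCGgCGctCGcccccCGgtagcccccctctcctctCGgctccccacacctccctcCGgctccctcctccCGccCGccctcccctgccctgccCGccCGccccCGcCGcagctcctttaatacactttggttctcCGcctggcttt
TSHZ3, start covered, chr19:31349437-31349686, minus strand: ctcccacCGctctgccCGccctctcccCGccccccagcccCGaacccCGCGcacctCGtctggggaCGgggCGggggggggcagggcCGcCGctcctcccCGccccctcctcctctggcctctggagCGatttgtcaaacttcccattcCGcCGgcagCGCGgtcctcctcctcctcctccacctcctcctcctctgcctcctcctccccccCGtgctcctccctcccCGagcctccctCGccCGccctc
KLF5, second start, covered, chr13:73058755-73059004, plus strand: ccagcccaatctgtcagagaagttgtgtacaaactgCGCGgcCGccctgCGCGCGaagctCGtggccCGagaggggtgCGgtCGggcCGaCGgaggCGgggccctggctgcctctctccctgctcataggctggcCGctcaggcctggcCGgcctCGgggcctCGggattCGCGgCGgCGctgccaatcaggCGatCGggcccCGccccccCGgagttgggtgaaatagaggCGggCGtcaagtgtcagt
KLF5, first start, not covered, chr13:73054726-73054975, plus strand: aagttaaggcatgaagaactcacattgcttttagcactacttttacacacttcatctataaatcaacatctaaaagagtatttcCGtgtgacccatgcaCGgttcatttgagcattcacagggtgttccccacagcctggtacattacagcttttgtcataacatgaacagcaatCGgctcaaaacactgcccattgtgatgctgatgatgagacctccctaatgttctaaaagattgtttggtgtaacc
ZIC5, first start, not covered, chr13:99971910-99972159, minus strand: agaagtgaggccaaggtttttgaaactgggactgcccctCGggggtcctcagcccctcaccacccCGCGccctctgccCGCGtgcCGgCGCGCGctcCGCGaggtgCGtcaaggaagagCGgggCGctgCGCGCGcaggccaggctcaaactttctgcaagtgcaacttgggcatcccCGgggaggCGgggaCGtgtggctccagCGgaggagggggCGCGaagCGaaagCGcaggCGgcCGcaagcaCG

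The 3 covered start sites were rich in CG pairs, with 31 in ZIC2, 21 in TSHZ3 and 27 at the second start of KLF5. The first start of KLF5, which lies 3467 bp before its region, held 3 CG pairs and had a GC content of 40.8%, against 70.8% at the second start. CG pairs alone did not separate covered from uncovered starts, because the uncovered first start of ZIC5 held 28. Of 35116 RefSeq start sites with such a sequence, 79.0% of the 7594 with 25 or more CG pairs lay in a region of the table, against 6.68% of the 12058 with fewer than 5. Motifs were searched on both strands, and matches of different motifs may overlap. The GC box GGGCGG, the element bound by Sp and Krüppel-like factors, matched 5 times in TSHZ3, 4 times in ZIC2, 2 times at the second start of KLF5 and 0 times at the first start of KLF5 and of ZIC5, and 42.6% of all start sites held it. The TATA box TATAAA matched 1 time at the first start of KLF5 and 0 times at the other 4, and 10.7% of all start sites held it. The CCAAT box CCAAT matched 2 times at the second start of KLF5 and 0 times at the other 4, and 32.0% of all start sites held it. The CACCC box CACCC matched 2 times each in ZIC2 and at the second start of KLF5, 1 time each at the first starts of KLF5 and ZIC5 and 0 times in TSHZ3, and 54.7% of all start sites held it.

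Values are CPM, read counts per 1000000, that is reads scaled to that total over the listed regions, so a gain or loss over the whole genome cannot be seen. The libraries differed in depth and background. WM-1119 libraries held 4542322 to 12705349 reads in regions, and DMSO libraries 719329, 1298443 and 7481097 in replicates 1, 2 and 3. DMSO replicates 1 and 2 stood apart from the other 4 libraries by a higher background. On chromosome 13 it was 4.56 to 5.87 CPM per kb in the WM-1119 libraries and 12.6, 11.2 and 4.30 CPM per kb in DMSO replicates 1, 2 and 3, and on chromosome 19 it was 4.06 to 5.26 against 10.6, 10.2 and 3.81. This chromosome background is the 10th percentile of CPM per bp, per library and chromosome, among regions wider than 500 bp and no wider than 1200 bp. Values corrected by it have background times width taken off and are rescaled to the same total. A second estimate takes the median CPM per bp of regions weaker than the median region, which was 3.87 to 5.71 CPM per kb in WM-1119 and 15.5, 12.3 and 3.84 CPM per kb in DMSO replicates 1, 2 and 3. As an average over many cells, the values do not tell more cells carrying the mark from more of it per cell. What part depth and background had in the differences was not tested beyond the values given beside them.

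H3K9ac at the ZIC2 start overlapped between the groups as deposited, and after correction every WM-1119 library lay above every DMSO library. The region spans 4330 bp at chr13:99979527-99983856, from 2257 bp before to 2072 bp after the start site at 99981784, and is wider than 98.8% of all regions. It held 67.6, 82.7 and 95.7 CPM in WM-1119 replicates 1, 2 and 3, against 83.4, 64.7 and 30.9 CPM in DMSO replicates 1, 2 and 3. The groups overlapped, DMSO replicate 3 was far below the other 5 libraries, and the log2 difference, with 1 CPM added to each value, was 0.55 ± 0.45 (SE, n = 3 each). Without DMSO replicate 3 that difference was 0.14, and without DMSO replicate 1 it was 0.84.

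In all 3 DMSO libraries the expected background was more than what was left of the ZIC2 signal after it was taken off the deposited value. The expected background over this width was 25.4, 20.7 and 19.7 CPM in WM-1119 replicates 1, 2 and 3, against 54.4, 48.3 and 18.6 CPM in DMSO replicates 1, 2 and 3. Corrected values were 52.2, 75.3 and 89.9 CPM in WM-1119 and 45.8, 24.7 and 14.3 CPM in DMSO. The groups no longer overlapped, though WM-1119 replicate 1 and DMSO replicate 1 lay close together, and the log2 difference became 1.44 ± 0.52 (SE, n = 3 each). With the second estimate the values were 55.9, 77.0 and 93.9 CPM in WM-1119 and 41.3, 22.8 and 16.9 CPM in DMSO, a log2 difference of 1.52. DMSO replicate 1 held 60 reads there, which gives a 95% Poisson interval of 63.7 to 107 CPM before correction, for counting error only. With DMSO replicate 3 left out the corrected log2 difference was 1.05, and against DMSO replicate 3 alone, whose background was near that of the WM-1119 libraries, it was 2.23.

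**Figure D1:**
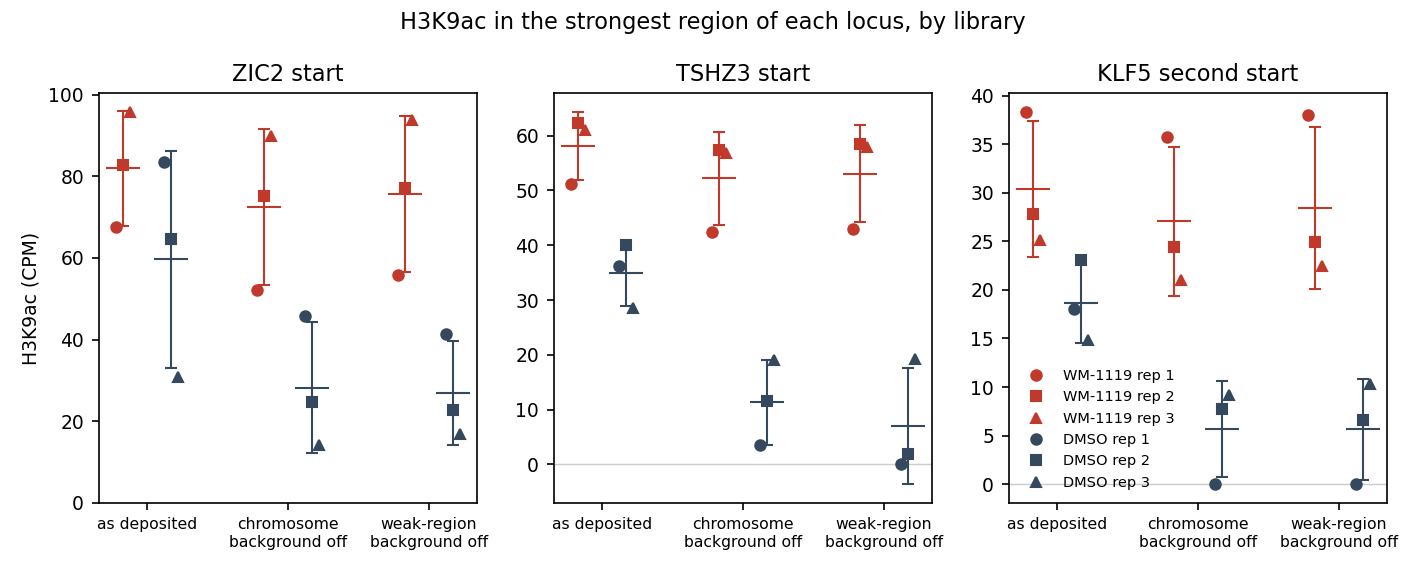
H3K9ac in CPM in the strongest region of ZIC2, TSHZ3 and KLF5, with WM-1119 left of DMSO. Points are libraries, horizontal marks are means and bars are 1 SD of 3 libraries, shown as deposited and after each background was subtracted. As deposited, the ZIC2 groups overlap and those of TSHZ3 and KLF5 do not; after either subtraction every WM-1119 library lies above every DMSO library in all 3 regions.

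ZIC5, which is read away from ZIC2 on the other strand, had no region over any of its 3 annotated start sites. Inside the gene lay 2 regions of 147 bp, the narrowest width in the table, which 9.87% of regions have. The one at chr13:99968673-99968819, 353 bp past the innermost start site in the direction of the gene, held 0.881, 0.9003 and 0.866 CPM in WM-1119 replicates 1, 2 and 3, against 5.56, 2.31 and 0.267 CPM in DMSO replicates 1, 2 and 3. In DMSO these are 4, 3 and 2 reads. The one at chr13:99970525-99970671 held 1.101, 1.00 and 0.866 CPM in WM-1119, against 1.39, 2.31 and 0.401 CPM in DMSO, the last 3 being 1, 3 and 3 reads. Both were at or near the floor and the groups overlapped in each. Because the window of 20 kb reaches the ZIC2 start, the sum over the ZIC5 window equals that of ZIC2, with a log2 difference of 0.50, but over the ZIC5 body alone the log2 difference was -0.55. Of the shared window's signal the ZIC2 start region held 97.2% to 98.2% in WM-1119 libraries and 92.3% to 97.9% in DMSO libraries.

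H3K9ac at the TSHZ3 start was higher in every WM-1119 library than in every DMSO library, both as deposited and corrected, while the regions further inside the gene were not. The start region spans 3189 bp at chr19:31348606-31351794 and covers the annotated start site at 31349436 as well as the outer end of the gene. It also lies within the non-coding gene TSHZ3-AS1, and these libraries do not tell strands apart. It held 51.1, 62.3 and 61.0 CPM in WM-1119 replicates 1, 2 and 3, against 36.1, 40.0 and 28.5 CPM in DMSO replicates 1, 2 and 3. The groups did not overlap, and the log2 difference was 0.73 ± 0.17 (SE, n = 3 each). Leaving out 1 library at a time gave 0.59 to 0.83.

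In the shallow DMSO libraries the TSHZ3 start stood barely above the estimated background. The expected background was 16.8, 15.1 and 12.9 CPM in WM-1119 replicates 1, 2 and 3, against 33.9, 32.4 and 12.1 CPM in DMSO replicates 1, 2 and 3. Corrected values were 42.4, 57.3 and 56.9 CPM in WM-1119 and 3.52, 11.5 and 19.005 CPM in DMSO. The corrected log2 difference was 2.34 ± 0.65 (SE, n = 3 each), and against DMSO replicate 3 alone it was 1.40. The second estimate left 0 and 1.85 CPM in DMSO replicates 1 and 2, and the log2 difference was then 3.79. DMSO replicate 1 held 26 reads in the region, with a 95% Poisson interval of 23.6 to 53.0 CPM, which contains its expected background. The interval of DMSO replicate 2, from 52 reads, was 29.9 to 52.5 CPM and also contains its expected background. That of DMSO replicate 3, 24.8 to 32.6 CPM, lay above its own.

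The other 4 TSHZ3 regions lay inside the gene and were weaker. The strongest of them, 1266 bp at chr19:31316142-31317407, held 9.47, 18.8 and 10.8 CPM in WM-1119, against 18.1, 20.02 and 7.35 CPM in DMSO, with overlapping groups and a log2 difference of -0.15. The regions at 31213938, 31304823 and 31305261 had means of 1.51 to 2.27 CPM in WM-1119 and 3.24 to 5.36 CPM in DMSO, and log2 differences of -1.12 to -0.26, with overlapping groups in each. The share of the window's signal that lay in the start region was 77.9%, 70.3% and 80.1% in WM-1119 replicates 1, 2 and 3, against 51.0%, 51.5% and 72.9% in DMSO replicates 1, 2 and 3. The share was lowest in DMSO replicates 1 and 2, the libraries of high background, and among the other 4 libraries it did not follow the background. The part of background in it was not tested. Summed over the window the log2 difference was 0.34, and without DMSO replicate 3 it was 0.04.

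KLF5 had 1 region, over its second start site, and it was higher in every WM-1119 library. It spans 1609 bp at chr13:73058443-73060051, from 562 bp before to 1046 bp after the start site at 73059005, and does not reach the first start site. It held 38.3, 27.8 and 25.1 CPM in WM-1119 replicates 1, 2 and 3, against 18.1, 23.1 and 14.8 CPM in DMSO replicates 1, 2 and 3. The groups did not overlap, WM-1119 replicate 3 and DMSO replicate 2 were neighbours, and the log2 difference was 0.67 ± 0.25 (SE, n = 3 each). DMSO replicate 2 held 30 reads, with a 95% Poisson interval of 15.6 to 33.0 CPM that contains the values of WM-1119 replicates 2 and 3.

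After correction every WM-1119 library again lay above every DMSO library at KLF5, by a wider gap. The expected background was 9.44, 7.69 and 7.33 CPM in WM-1119, against 20.2, 17.95 and 6.93 CPM in DMSO replicates 1, 2 and 3, so that DMSO replicate 1 lay below it. Corrected values were 35.7, 24.4 and 21.0 CPM in WM-1119 and 0, 7.77 and 9.21 CPM in DMSO. The corrected log2 difference was 2.61 ± 1.105 (SE, n = 3 each), 1.53 without DMSO replicate 1 and 3.21 without DMSO replicate 3. Against DMSO replicate 3 alone it was 1.42, and 0.97 before correction. The value of 0 in DMSO replicate 1 comes from 13 reads, whose 95% Poisson interval was 9.62 to 30.9 CPM. That interval and the one of DMSO replicate 2, 15.6 to 33.0 CPM, each contain the expected background of their library. The interval of DMSO replicate 3, 12.2 to 17.9 CPM, lay above its own.

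**Figure D2:**
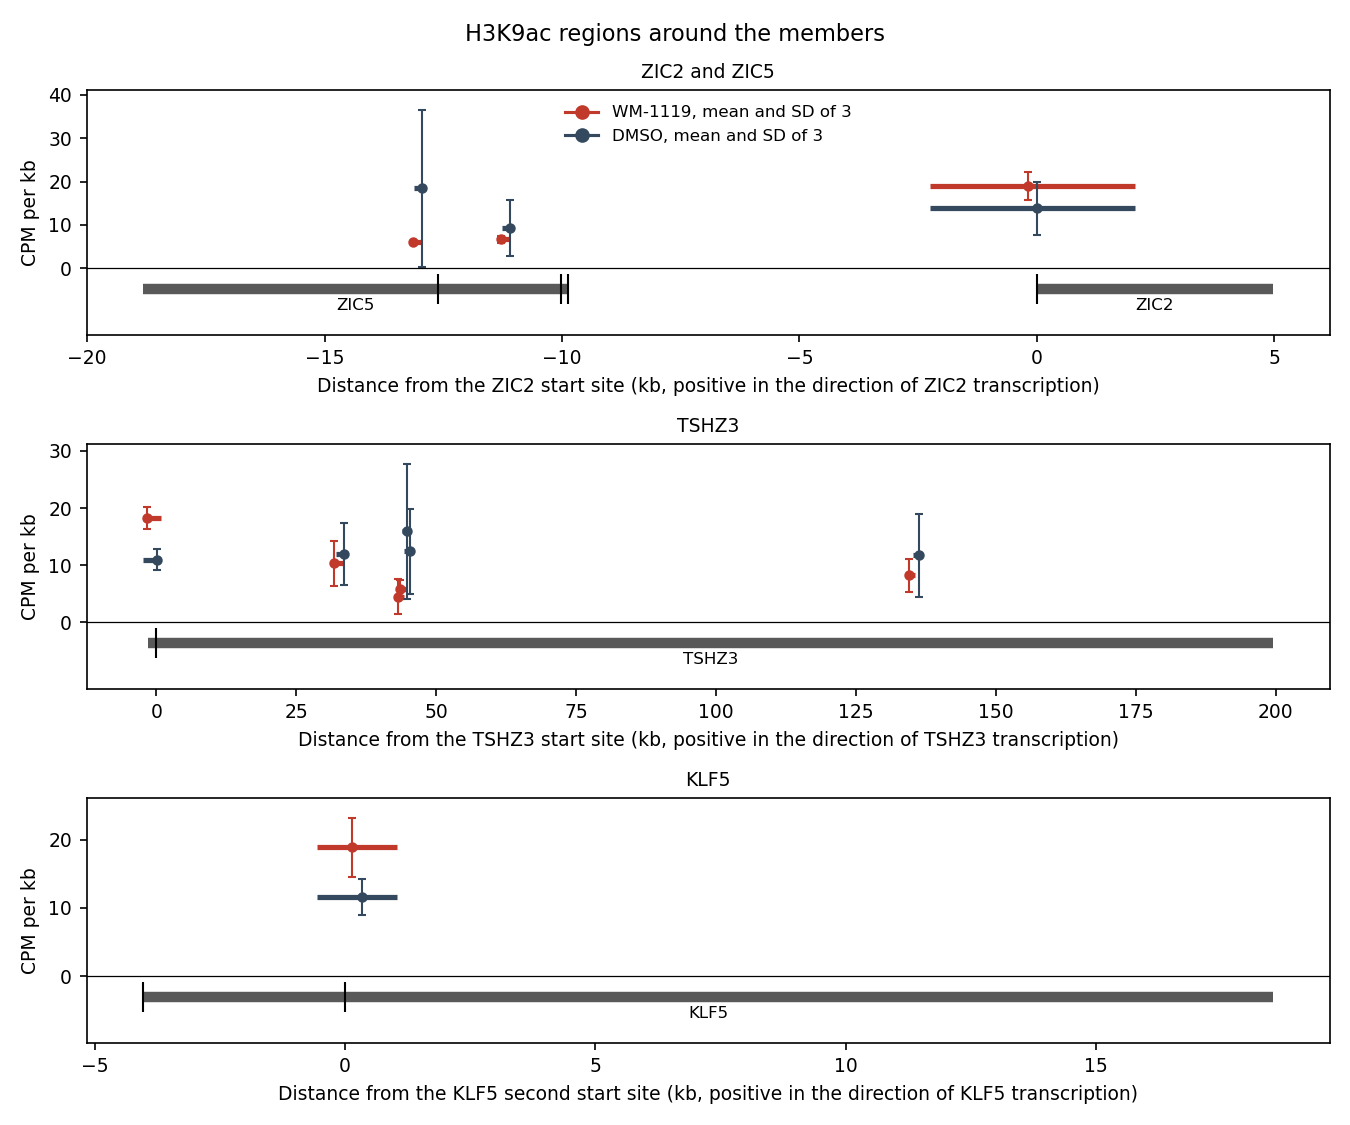
H3K9ac in CPM per kb, as deposited, against the distance in kb from the ZIC2, TSHZ3 and second KLF5 start sites. Horizontal lines span each region, dots with bars are means and SD of 3 libraries (WM-1119 drawn left of DMSO), grey bars are genes and ticks are annotated start sites. The start regions of TSHZ3 and KLF5 lie higher in WM-1119, and the narrow regions inside ZIC5 and TSHZ3 lie lower with wide DMSO bars.

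Per length, the 3 start regions held nearly the same level of H3K9ac in WM-1119, and their order could not be told from their spread. As deposited, it was 18.9 ± 3.25 CPM per kb at ZIC2, 18.9 ± 4.33 at KLF5 and 18.2 ± 1.93 at TSHZ3 in WM-1119 libraries, against 13.8 ± 6.15, 11.6 ± 2.59 and 10.9 ± 1.85 CPM per kb in DMSO libraries (SD, n = 3 each). Within a library, ranked by CPM per kb among all regions, the ZIC2 start stood above 77.7% to 84.3% of regions in WM-1119, against 48.7% to 59.1% in DMSO. The TSHZ3 start stood above 78.2% to 82.5% in WM-1119 and above 24.2%, 37.6% and 69.2% in DMSO replicates 1, 2 and 3. The KLF5 region stood above 79.9% to 85.3% in WM-1119 and above 23.9%, 46.0% and 70.5% in DMSO replicates 1, 2 and 3. In each of the 3 regions every WM-1119 library ranked above every DMSO library, which the choice of genes makes likely, and ranks per kb move with background and depth. DMSO replicate 3 ranked nearest to the WM-1119 libraries in all 3.

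Set beside the table as a whole, 2 of the 9 regions, the TSHZ3 and KLF5 starts, had every WM-1119 library above every DMSO library as deposited, where 3.76% of the 44763 tested regions, those averaging 1 CPM or more, did. After the chromosome background was subtracted 3 of the 9 did, where 4.25% of all tested regions did, and with the second estimate the same 3, against 5.98%. In 0 of the 9 was every WM-1119 library below every DMSO library, against 13.2% of all tested regions as deposited, 12.8% after the first subtraction and 6.59% after the second. The 3 start regions average 20 to 100 CPM. Of all regions of that strength 13.2%, 12.5% and 14.7% had every WM-1119 library above, as deposited and after the first and second subtraction. In 6.74%, 6.47% and 3.94% of them every WM-1119 library lay below. The rule that picked the genes used this contrast, so nothing is read from these counts. The median log2 difference of all tested regions was -0.47 as deposited, and of the 8192 regions with a mean of 20 to 100 CPM it was 0.09 as deposited, 0.11 with the chromosome background subtracted and 0.27 with the second estimate. On chromosome 13 the 139 regions of that strength had medians of 0.01 as deposited and 0.10 corrected, and on chromosome 19 the 577 had -0.04 and 0.02. As deposited, 71 tested regions had a larger difference than the TSHZ3 start, 104 than KLF5 and 244 than ZIC2. With the chromosome background subtracted, 7 were larger than TSHZ3, 3 than KLF5 and 166 than ZIC2, and with the second estimate 3, 181 and 2041.

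The size of the difference changed with how background and scale were handled, and for ZIC5 its sign changed with the width of the window. Summed over the window as deposited, the log2 difference was 0.50 for ZIC2 and ZIC5, 0.34 for TSHZ3 and 0.67 for KLF5. Quantile normalization gave 0.34 for ZIC2 and ZIC5, 0.51 for TSHZ3 and 0.90 for KLF5. Subtracting either background raised it to 1.36 and 1.40 for ZIC2 and ZIC5, 1.24 and 1.89 for TSHZ3 and 2.61 and 2.70 for KLF5.

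**Figure D3:**
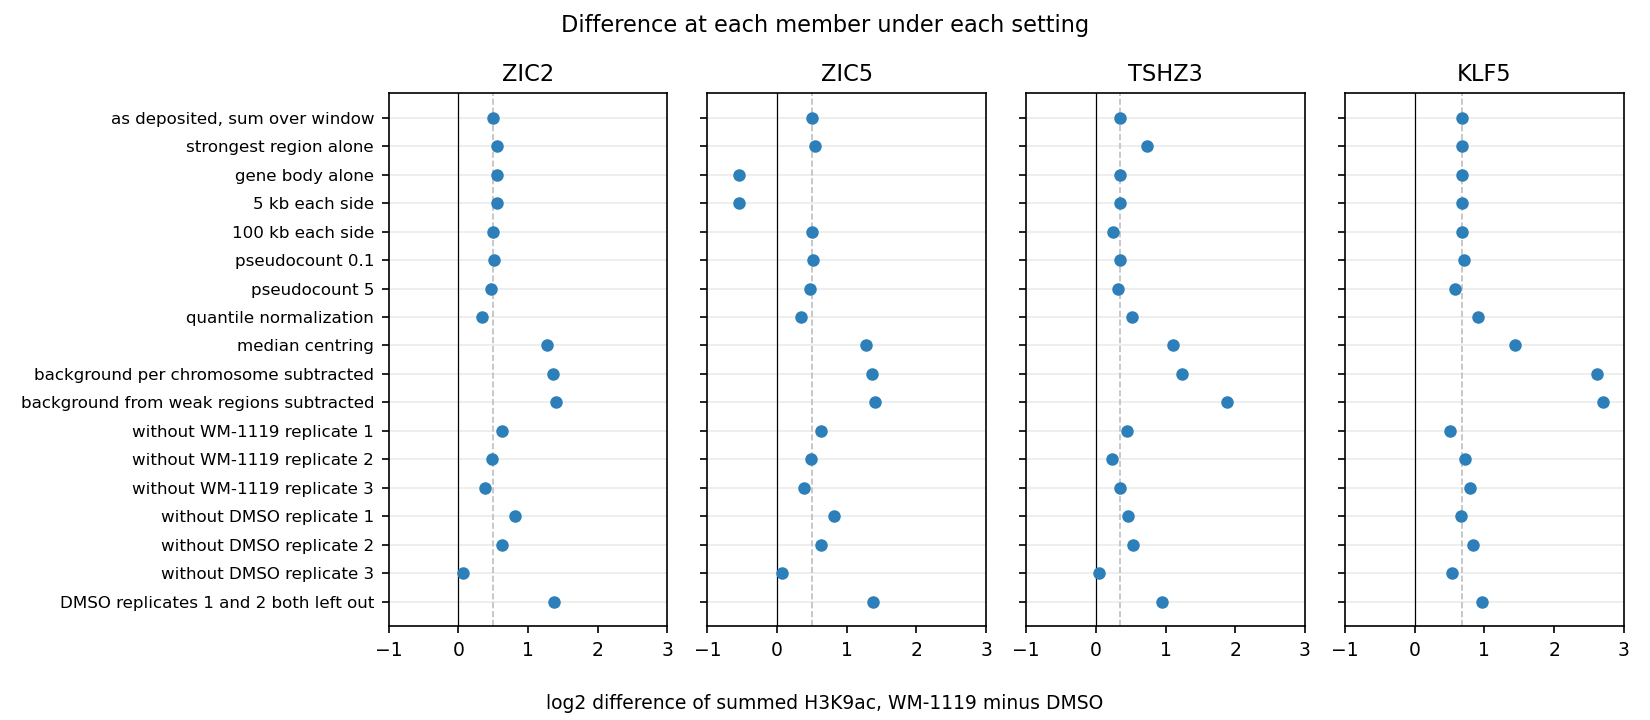
The log2 difference of summed H3K9ac, WM-1119 minus DMSO, for each gene under each setting, with 1 point per setting. The solid line is 0 and the dashed line the value as deposited over the window with 20 kb added on each side. Every point lies above 0 except those of the ZIC5 body alone and with 5 kb added on each side, both at -0.55, and the background settings lie farthest to the right for KLF5.

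**Figure D4:**
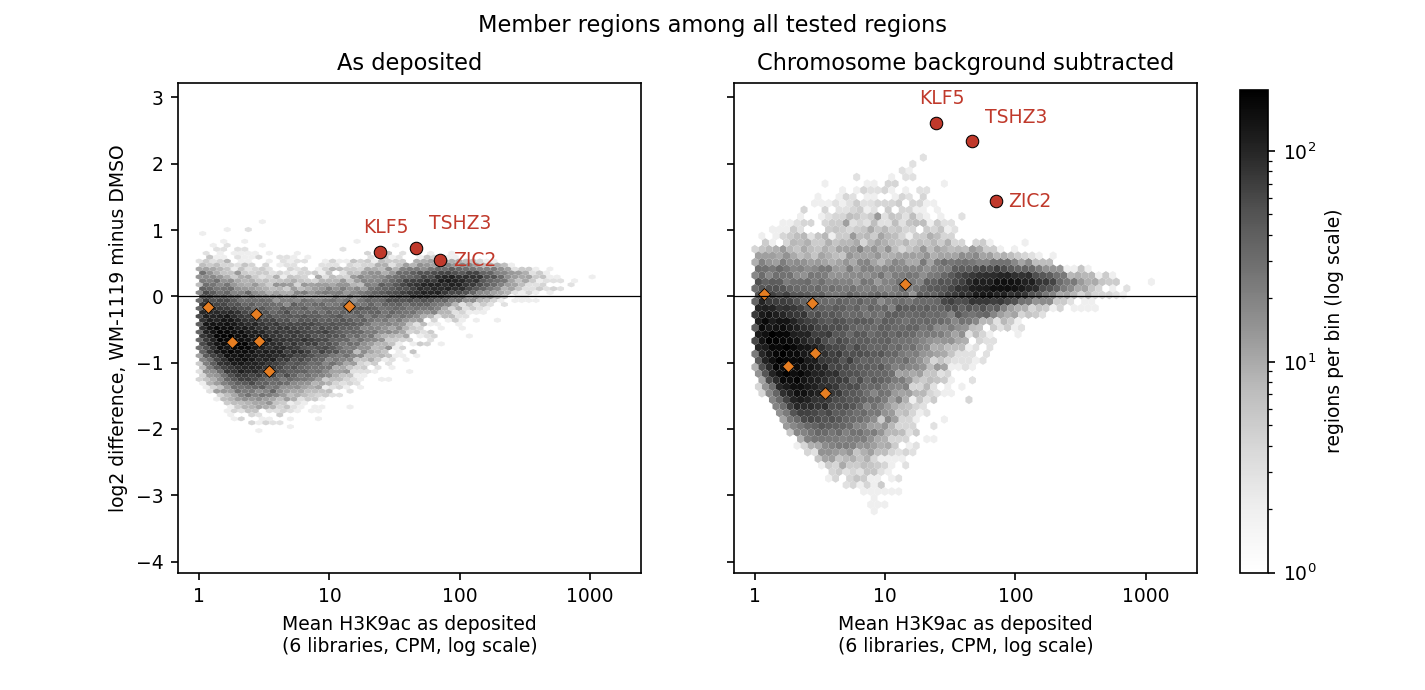
The log2 difference, WM-1119 minus DMSO, of 44763 tested regions against their mean CPM over 6 libraries on a log axis, as deposited on the left and with the chromosome background subtracted on the right. Shading is the number of regions, red circles are the 3 start regions and orange diamonds the 6 weaker regions of the members. The start regions lie at 0.55 to 0.73 on the left and 1.44 to 2.61 on the right, near the upper rim, and the 6 weaker regions lie among the bulk. The genes were chosen for higher values after background subtraction, so the place of the start regions carries no test.

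At the coding genes nearest to ZIC2 and ZIC5 the groups overlapped. No region lay between the ZIC window and 100 kb on either side. The first one beyond it on the higher side, 101662 bp from ZIC2, was at the PCCA gene, which encodes a propionyl-CoA carboxylase subunit, with 46.8 ± 3.56 CPM in WM-1119 and 42.0 ± 5.86 CPM in DMSO. CLYBL, a mitochondrial lyase gene on the other side, held 67.5 ± 2.88 CPM in WM-1119 and 67.4 ± 6.64 CPM in DMSO (SD, n = 3 each). The corrected log2 differences of PCCA and CLYBL were 0.28 and 0.04, and those of the next genes TM9SF2 and GGACT 0.07 and 0.11, all 4 with overlapping groups. Outside the KLF5 window the nearest regions lay 249 kb away on the lower side and 998 kb away on the higher side. The lower one held 1.81 to 2.42 CPM in WM-1119 and 0.936 to 9.24 CPM in DMSO, with overlapping groups. Farther down, the region at the shared ends of PIBF1 and DIS3 had 158, 165 and 149 CPM in WM-1119, against 107, 117 and 141 CPM in DMSO. DIS3 lies 273 kb from KLF5, and PIBF1, whose far end holds the region, lies 38.5 kb from it. The groups in that region did not overlap, as deposited or corrected, and its log2 difference was 0.38 as deposited and 0.44 corrected. TBC1D4, 2206 kb from KLF5 on the other side, had 45.8 ± 3.23 CPM in WM-1119 and 67.7 ± 10.6 CPM in DMSO (SD, n = 3 each). Its groups did not overlap as deposited and overlapped once corrected. Beside TSHZ3 the only region within 100 kb of the gene and outside its window held 0.220 to 1.73 CPM in WM-1119 and 2.27 to 9.73 CPM in DMSO. Of the nearest coding genes, ZNF536 and URI1 had no region at an end in the table used here, and ZNF507 and DPY19L3 had corrected log2 differences of 0.23 and 0.27 with overlapping groups.

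Among the relatives of the members, most Krüppel-like and Sp factor genes had a region near an end or start site, while ZIC1 and ZIC4 had no region. Because a region at either gene end was counted, some of them may belong to a neighbouring gene, which was not tested. Of 31 other ZIC, TSHZ, KLF and SP genes 22 had a region within 1 kb of an annotated end or start site, and 0 of these passed limma's adjusted threshold in either direction, where 0% of all tested regions passed as higher and 0.0603% as lower; 6 of the 22 had an unadjusted limma p under 0.05, as did 2.58% of tested regions in the higher and 10.8% in the lower direction. ZIC1, ZIC4 and TSHZ2 had none. The median log2 difference of the 22 was 0.24 as deposited and 0.25 corrected. As deposited 17 of the 22 were higher in WM-1119 and 3, namely KLF3, KLF7 and KLF13, had groups that did not overlap, all higher. Of all tested regions 22.8% were higher and 3.76% did not overlap upward. Of those with a mean of 20 to 100 CPM 65.3% were higher and 13.2% did not overlap upward. The 22 ran from 1.25 CPM at KLF1 to 574 CPM at KLF16, with KLF7 at 112 and KLF13 at 170 CPM (means of 6 libraries). Neither share is thus matched to them in strength, and nothing is read from the counts. KLF7 had 125, 127 and 123 CPM in WM-1119 replicates 1, 2 and 3, against 87.6, 87.8 and 119 CPM in DMSO replicates 1, 2 and 3. KLF13 had 189 ± 4.06 CPM in WM-1119 and 152 ± 21.7 CPM in DMSO (SD, n = 3 each).

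TSHZ1, the relative of TSHZ3, held 300 ± 16.6 CPM in WM-1119 and 243 ± 43.3 CPM in DMSO (SD, n = 3 each), with groups that overlapped as deposited and not after correction. KLF10, a factor induced by transforming growth factor beta, held 252, 237 and 201 CPM in WM-1119, against 214, 170 and 134 CPM in DMSO. Those groups overlapped as deposited and not after correction, with a corrected log2 difference of 0.62. KLF4, a factor of monocytes and epithelium, held 64.9 ± 16.7 CPM in WM-1119 and 49.5 ± 12.6 CPM in DMSO (SD, n = 3 each), and KLF2, a factor of endothelium and resting lymphocytes, 49.2 ± 14.2 and 43.7 ± 20.7 CPM in WM-1119 and DMSO, each with overlapping groups. KLF12, the nearest coding gene beyond KLF5, held 24.7, 18.9 and 22.1 CPM in WM-1119, against 36.1, 34.7 and 13.5 CPM in DMSO, a level close to that of KLF5 with a log2 difference of -0.23 as deposited and 0.29 corrected. The corrected log2 differences of the 22 ran from -1.46 at KLF8 to 0.86 at KLF14, both weak regions with overlapping groups.

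**Figure D5:**
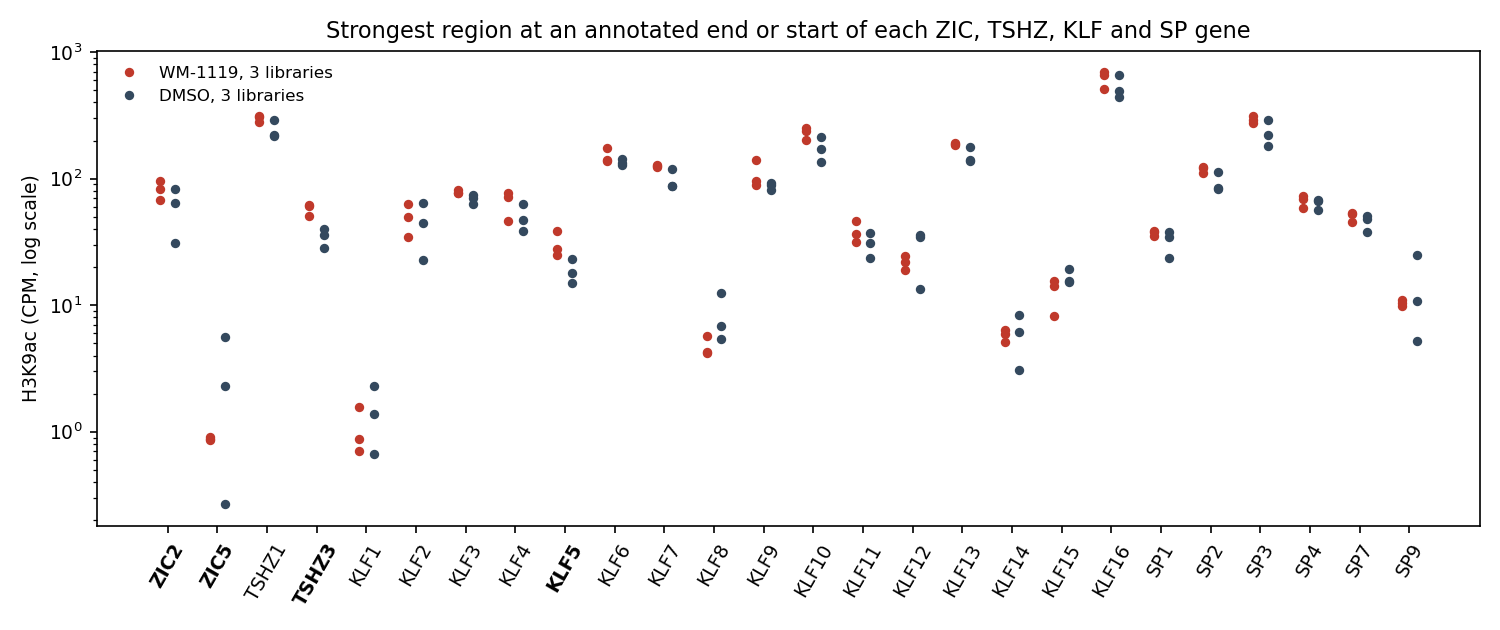
H3K9ac in CPM on a log axis, as deposited, in the strongest region at an annotated end or start site of each ZIC, TSHZ, KLF and SP gene that has one, with WM-1119 left of DMSO and 1 point per library. Names of members are bold; the point for ZIC5 is its narrow region near the innermost start site. The levels run from 1.25 CPM at KLF1 to 574 CPM at KLF16 as means of 6 libraries, and besides the chosen TSHZ3 and KLF5 the groups do not overlap at KLF3, KLF7 and KLF13, where 3.76% of all tested regions and 13.2% of those at 20 to 100 CPM have every WM-1119 library above.

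After correction the pattern over the 6 libraries was common for KLF5 and TSHZ3 and rare for ZIC2. Likeness was measured as Pearson's r of corrected log2 values over 6 libraries between a start region and the strongest end region of each of 10638 other coding genes. For KLF5 1141 genes (10.7%) reached an r of at least 0.9, for TSHZ3 914 (8.59%) and for ZIC2 20 (0.188%). Closest to KLF5 were TALDO1, EXOSC10, MRPL39 and the shared region of BRPF1 and CPNE9, with r of 0.995 to 0.999. Closest to TSHZ3 were SLC44A1, NIPAL2, ZBTB48 and the shared region of COPS5 and CSPP1, with r of 0.992 to 0.995. Closest to ZIC2 were DCAF5, RNPEP, ARHGEF11 and the shared region of WARS1 and WDR25, with r of 0.954 to 0.971. Between members the corrected r was 0.95 for TSHZ3 with KLF5, 0.49 for TSHZ3 with ZIC2 and 0.28 for KLF5 with ZIC2, and as deposited it was 0.78, 0.77 and 0.53 for the same pairs. All points share the same 6 libraries, with their depths and backgrounds, so these values describe likeness only. As deposited, the r of the 15 named genes with their member ran from 0.55 to 0.92.

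The labelled cell line was checked against defining genes. All 10 myeloid leukaemia markers, among them SPI1, CEBPA, MEIS1 and HOXA9, had a region averaging 10 CPM or more, and their summed levels were 3166 to 3928 CPM in WM-1119 and 2515 to 3946 CPM in DMSO. Of 8 neural markers 2 had a region, PAX6 and TUBB3, summing to 32.6 to 39.2 CPM in WM-1119 and 29.9 to 40.8 CPM in DMSO, while SOX2, NES and SOX10 had none. Of 8 epithelial markers 3 had one, KRT8 and KRT18 sharing theirs, and the 2 regions summed to 2.83 to 3.30 CPM in WM-1119 and 2.54 to 8.34 CPM in DMSO, and CDH1, KRT5 and GRHL2 had none. Of 5 erythroid markers only KLF1 had one, at 0.7003 to 1.57 CPM in WM-1119 and 0.668 to 2.31 CPM in DMSO. Of 5 lymphoid markers 4 did, at 14.5 to 19.2 CPM in WM-1119 and 17.4 to 41.7 CPM in DMSO. In every list the ranges of the 2 groups overlapped.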

How the data were processed

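ChIP-seq libraries for H3K9ac from MOLM-13 were used, grouped and numbered by the sample titles. Per the submitters' processing notes, Bowtie2, SAMtools, MACS2 and bedtools were used with build hg38; roles, versions, merging of regions and removal of duplicates are not given in the sources used here. In the deposited table the authors name the values TPM, but they are CPM: per library, 100% of values of up to 100 reads lay within 0.02 of a whole multiple of 1 step, whatever the width. edgeR and the Poisson intervals left out WM-1119 replicate 2, whose step of 0.100038 CPM is near a round value. Its values were whole multiples of that step as in the other libraries, and the chi-squares between libraries used its reads. Table starts were taken to count from 0, and 1 was added.

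limma 3.58.1 in R 4.3.3 was run with trend and robust settings on log2(CPM + 1) over regions averaging 1 CPM or more; the sole term was treatment, with Benjamini-Hochberg adjustment at 0.05. The pseudocount understates changes of weak regions. Where a corrected value is 0 or near it, as in DMSO replicate 1 at KLF5, the size of the log2 difference depends on the 1 CPM added. Pseudocounts of 0.1 and 5 CPM were run on deposited values only. This fit serves for relatives and for the share of all regions called, since the members were chosen by the same contrast. The design had assumed a sum over each window as the member's value; the start regions described beside it were added after the data were seen. edgeR 4.0.16 was run on recovered reads of 5 libraries. Both models were also run on simulated counts at the real depths. Apart from planted changes, the simulated libraries shared the same region means and had no difference in background. Those runs therefore say nothing of how the models handle the background of DMSO replicates 1 and 2. Tables were made with scipy 1.17.1 and pandas 2.3.3 in Python 3.11.15, and figures with matplotlib 3.10.9. Genes and sequences came from RefSeq tables of GRCh38.p14; all 4 members matched by symbol.

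Members and lists were chosen with earlier results of these data known. Named genes were the members, the nearest 2 coding genes on each side, all ZIC, TSHZ, KLF and SP genes, and per locus the 5 coding genes most like it over 6 libraries among those averaging 10 CPM or more; the relatives given with values were picked after these were seen. No 2 libraries held the same counts. DMSO replicates 1 and 2 were the most alike, with a chi-square of 1.55 per degree of freedom, and every other pair had 3.175 or more. The p-values reflect only how far these libraries differ among themselves, and that spread may be technical. Some listed genes are not reported here by name.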

Additional observations from a re-analysis of the deposited data

How the results depend on the processing

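The summed log2 differences of the 4 members, 0.50 for ZIC2 and ZIC5, 0.34 for TSHZ3 and 0.67 for KLF5, kept their sign in each setting run except over the ZIC5 body alone or with 5 kb added, where ZIC5 was at -0.55. Settings moved their size. With median centring they were 1.27, 1.11 and 1.45 for the ZIC pair, TSHZ3 and KLF5, with the chromosome background subtracted 1.36, 1.24 and 2.61, and with the weak-region background 1.40, 1.89 and 2.70. Without both DMSO replicates 1 and 2 the ZIC pair was at 1.37 and TSHZ3 at 0.95. Leaving out 1 library gave 0.07 to 0.81 for the ZIC pair, 0.04 to 0.53 for TSHZ3 and 0.50 to 0.83 for KLF5, with the lowest value of the ZIC pair and of TSHZ3 without DMSO replicate 3. The cause was not tested.

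Over all regions limma called 27, 0 higher and 27 lower. It called 2 among regions averaging 10 CPM or more, 1 with quantile normalization, 2 with median centring (both higher, with the median region moved from -0.47 to 0.30 on the log2 scale), 76 with the chromosome background subtracted (25 higher) and 2 with the weak-region background. Without trend and robust it called 0, though 33 were higher and 4903 lower by an unadjusted p below 0.05. Leaving out 1 library gave 0 to 19637, the 0 without DMSO replicate 2 (393 higher and 1635 lower unadjusted) and the 19637 without DMSO replicate 3 (2409 higher). Without DMSO replicates 1 and 2 it called 23, of which 14 were higher; there the lone DMSO library is assumed to vary like the WM-1119 libraries. edgeR called 0, with 350 higher and 1773 lower unadjusted, and 13 with library size alone. A replicate block, with the number in the titles as a term, called 496, of which 112 were higher. Deviations of same-numbered libraries correlated at 0.22, 0.05 and 0.33, and those of other-numbered libraries at -0.27 to 0.06. Of 6 libraries 5 correlated best with their own number. The labels do not say that the numbers are pairs, and the main fit did not take them as such, so a pairing remains possible. Depth limits the members most in DMSO replicate 1, where 3 reads are worth 4.17 CPM.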
